A study of Mus musculus with 6 samples.

Results

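The genes described here drive or restrain passage from G1 into S phase: the D-type cyclin genes Ccnd1, Ccnd2 and Ccnd3, the E-type cyclin genes Ccne1 and Ccne2, the kinase genes Cdk2, Cdk4 and Cdk6, and the pocket protein genes Rb1 and Rbl1. They are 10 of the 30869 gene symbols on the array, and they were taken by symbol, with every probe that carries one. This gave 24 of the 45281 probes. Of these, 21 rose above background, a detection p under 0.01, on 2 or more arrays and were tested together with 17026 probes in all. The other 3, a probe each for Ccnd2, Ccnd3 and Rbl1, were above background on 0 arrays and give no change.

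RNA came from SmoWT-MB, a mouse medulloblastoma cell line that the labels describe as deficient in Ptch, the receptor that holds the hedgehog pathway off. All groups, the controls included, are this 1 line. SmoWT in its name reads as wild-type Smoothened, and the altered Ptch allele is not given in the sources used here. Cells were exposed for 6 h to DMSO, the solvent, to JQ1, which blocks the acetyl-lysine pockets of BET bromodomain proteins, or to GDC-0449 (vismodegib), which blocks the hedgehog transducer Smoothened, with 2 arrays per group. The labels give neither concentrations nor separate cultures. The p-values therefore measure only how far these samples spread, which may be technical variation, and a difference between JQ1 and GDC-0449 is one between treatments of unstated dose.

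In G1, D-type cyclins bind CDK4 or CDK6 and begin to phosphorylate the pocket proteins RB and p107. Cyclin E with CDK2 carries this further, the pocket proteins release E2F transcription factors, and E2F target genes for DNA replication are switched on. In cerebellar granule neuron precursors, the cells from which hedgehog medulloblastoma arises, hedgehog signalling keeps D-type cyclin genes on, and BET proteins are known as coactivators at many growth genes.

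The arrays had between 15125 and 16466 probes above background, with the fewest on the JQ1 arrays, and the 2 arrays of a group correlated at 0.995 to 0.996 over probes, which are not independent replicates. Ptch1, a hedgehog target as well as the receptor gene, was above background on all 6 arrays, with log2 intensities of 7.41 and 7.44 under DMSO, and fell 3.27-fold with JQ1 and 3.57-fold with GDC-0449 on the brighter of its 2 probes. It then read 5.79 and 5.64 with JQ1 and 5.74 and 5.43 with GDC-0449. The lowest detected log2 signals were 5.47 and 5.42, and 5.21 and 5.25, so these fold sizes are limited by background. Where its probe lies relative to the altered part of the gene was not examined, so this signal does not check the labelled deficiency. Hhip, another hedgehog target, fell 2.93-fold and 3.84-fold, with GDC-0449 readings of 5.59 and 5.64, also near the lowest detected signal. Hexim1, a gene that BET inhibitors raise, rose 7.12-fold with JQ1 (limma adjusted p = 1.27e-06) and had a log2 change of 0.15 with GDC-0449 (adjusted p = 0.367). Of 12 markers of granule neuron precursors and hedgehog medulloblastoma, 7 were above background on at least 2 arrays, among them Barhl1, Zic1 and Otx2, whereas Atoh1 and Pax6 were on 0 arrays. Their summed linear signal was 6710 to 6860 with DMSO, 6400 to 6620 with JQ1 and 9980 to 10000 with GDC-0449. Of the markers of other cell types, 1 of 6 microglial, 1 of 5 endothelial, 2 of 6 astrocyte, 1 of 6 fibroblast and 2 of 7 oligodendrocyte genes were above background on at least 2 arrays. Gfap, Aqp4, Mog, Sox10 and Olig2 were on 0 arrays. The summed oligodendrocyte signal was 510 to 571 with DMSO, 221 to 227 with JQ1 and 475 to 483 with GDC-0449, that of astrocyte genes 2090 to 2110, 1180 to 1260 and 1930 to 1940, and that of fibroblast genes 220 to 241, 125 to 129 and 181 to 188. Every sum also counts listed genes that were not above background. Under DMSO the largest part of each came from a single gene, Mbp, Slc1a3 and Pdgfra in turn. On the log2 scale Mbp read 8.59 and 8.33 with DMSO and 6.35 and 6.25 with JQ1. Slc1a3 read 10.92 and 10.95, then 10.02 and 10.12, and Pdgfra 6.79 and 6.99, then 4.46 and 4.57. The microglial sums lay between 143 and 165 and the endothelial ones between 134 and 151 over all arrays, and the part of any of these in the results below was not tested. In such bulk RNA, fewer cells that express a gene and less RNA per cell cannot be told apart.

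With JQ1 the G1 genes split. All probes of Ccnd1 and Cdk4, the Ccne2 and Cdk6 probes, all tested Ccnd2 probes and 1 of 2 tested Rbl1 probes were lower than with DMSO, while both tested probes of Ccnd3 and both of Rb1 were higher, and no Cdk2 or Ccne1 probe passed the test. These changes are relative to the other probes. Mean raw signal was 408 and 344 with DMSO and 303 and 313 with JQ1. The brightest Ccnd3 probe had raw signals of 877.4 and 879, then 878.5 and 969.5, and that of Rb1 638 and 468.3, then 514.1 and 515.8. In counts, 11 of 21 probes fell (6 genes) and 4 rose (2 genes) at a limma adjusted p under 0.05. Of all tested probes 28.8% fell and 27.6% rose in this comparison, 56.4% together, so that a call with JQ1 is common to begin with. Without DMSO array 2 the rises numbered 2, those of Ccnd3. The median log2 change over the 21 probes was -0.295, against -0.001 over all probes, and 3 of the 21 fell at least 2-fold, as did 1069 of 17026. The JQ1 arrays lay wholly below the DMSO arrays for 13 probes and wholly above for 4, where 39.4% and 39.2% of all probes did so.

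With GDC-0449 fewer of them moved, and those that passed were all lower: 7 of 21 probes, in Ccnd1, Ccnd2, Ccne2 and Cdk6. Of all tested probes 8.11% fell and 7.24% rose with GDC-0449, 15.3% together. By limma 0 member probes rose, while at an unadjusted p of 0.05 there were 1 higher and 10 lower. The median over the 21 probes was -0.165, against 0.014 over all, and 2 of them fell at least 2-fold, as did 101 of 17026. The GDC-0449 arrays lay wholly below the DMSO arrays for 11 probes and wholly above for 3, where 29.1% and 31.5% of all probes did so.

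**Figure D1:**
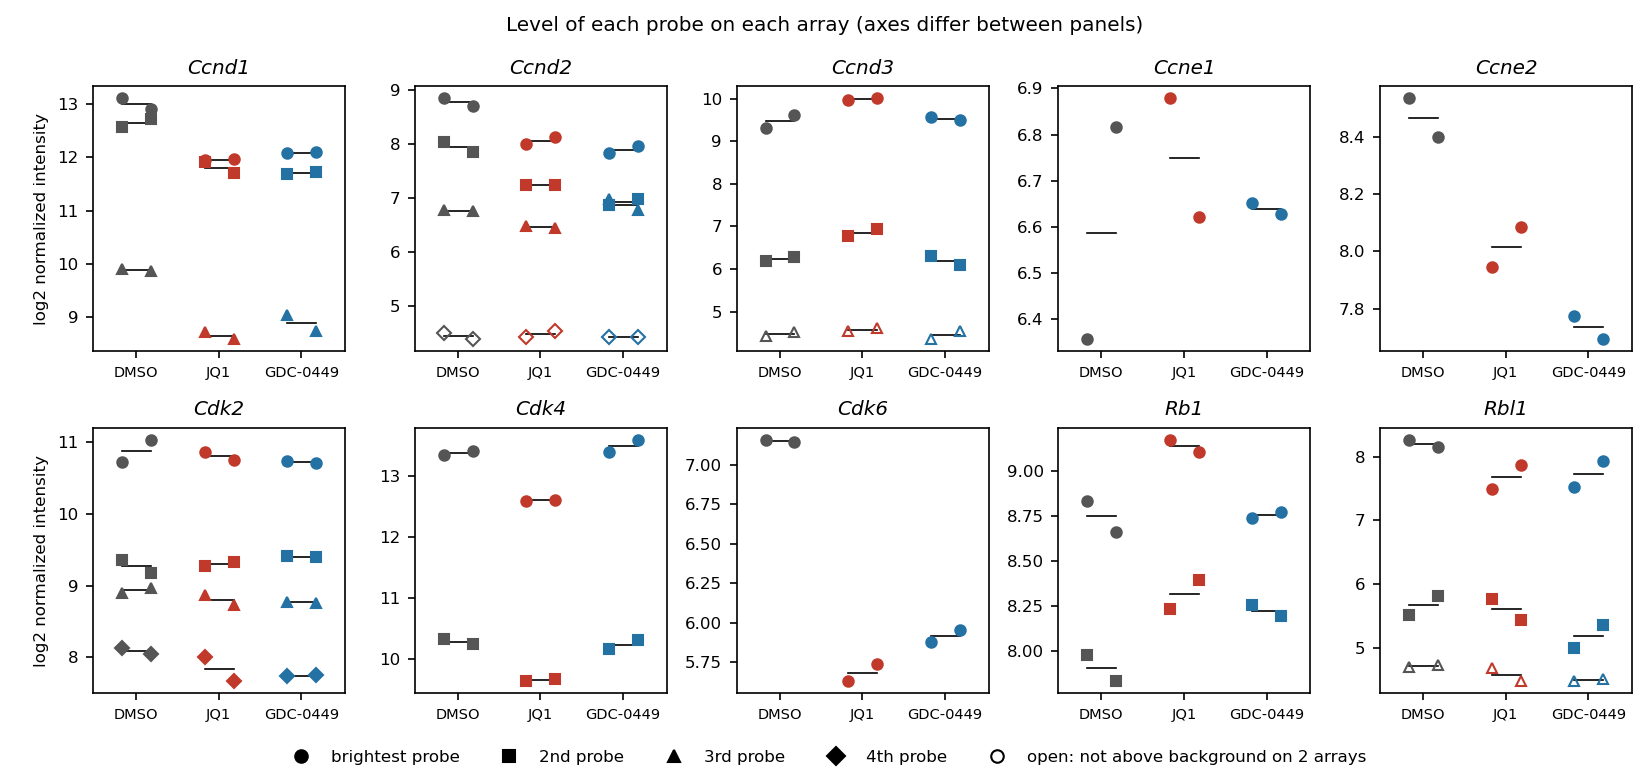
Log2 normalized intensity of all 24 probes on each of the 6 arrays, a panel per gene with its own axis; each point is 1 array, bars are the means of 2 arrays, symbols mark the probes of a gene from brightest to dimmest, and open symbols are probes not above background on 2 arrays. The Cdk6 probe is lower on all 4 treated arrays than on both DMSO arrays, whereas both Cdk4 probes are lower on the JQ1 arrays than on the other 4.

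Ccnd1 encodes cyclin D1, a D-type cyclin that growth factor and hedgehog signals are known to raise. Its brightest probe, ILMN_1221503, had log2 intensities of 13.11 and 12.90 with DMSO, 11.95 and 11.97 with JQ1, and 12.08 and 12.10 with GDC-0449. All treated arrays were lower than both controls. It fell 2.07-fold with JQ1 (log2 change -1.05 with an SE of 0.10 from 2 arrays in each group, limma adjusted p = 7.3e-05) and 1.89-fold with GDC-0449 (-0.92, SE 0.10, limma adjusted p = 0.00173). The second probe fell by 0.84 and 0.94 on the log2 scale with JQ1 and GDC-0449, and the third, ILMN_2669793, the only one that the file annotates as the cyclin D1 mRNA, fell by 1.24 and 1.00. The changes of the 3 probes lay within 0.40 of each other for JQ1 and within 0.08 for GDC-0449. Between the compounds the probes differed by -0.13, 0.10 and -0.24, and none passed the test. For the third probe the 95% interval ran from -0.52 to 0.04, and it passed without GDC-0449 array 2 (adjusted p = 0.0357), while the second was 0.39 higher with JQ1 when arrays were scaled to a common median (adjusted p = 0.0172).

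Ccnd2, the gene of cyclin D2, is a D-type cyclin gene of granule neuron precursors. Probe ILMN_2700166 read 8.86 and 8.72 with DMSO, 7.998 and 8.13 with JQ1, and 7.85 and 7.96 with GDC-0449. Probe ILMN_2700168, which the file ties to the same transcript record, read 8.04 and 7.85 with DMSO, 7.24 and 7.24 with JQ1, and 6.88 and 6.99 with GDC-0449. On both probes all treated arrays were below both controls, with falls of 1.65-fold and 1.63-fold for JQ1 (adjusted p = 0.00055 and 0.000622) and of 1.85-fold and 2.02-fold for GDC-0449 (adjusted p = 0.00211 and 0.00124).

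The third Ccnd2 probe, ILMN_1225932, belongs to another transcript record of the array, one without a gene description, and did not follow them. It read 6.78 and 6.76 with DMSO, 6.50 and 6.45 with JQ1, and 6.98 and 6.79 with GDC-0449. The JQ1 arrays were below the controls and the GDC-0449 arrays above them. Its fall of 0.295 on the log2 scale with JQ1 (adjusted p = 0.0357) was lost without any 1 DMSO or JQ1 array (adjusted p between 0.0847 and 0.129 with the normalization repeated). That fall also did not pass on all 6 arrays with an intensity trend in the variance (limma adjusted p = 0.0587). The probe's change with GDC-0449 was 0.12 (95% interval -0.12 to 0.35, adjusted p = 0.474). The log2 gap between the brightest probe and this one was 2.08 and 1.96 with DMSO, 1.50 and 1.68 with JQ1 and 0.87 and 1.17 with GDC-0449, while the gap to ILMN_2700168 stayed between 0.76 and 0.97 on all 6. The gap to the third probe is thus widest on both control arrays and narrowest on both GDC-0449 arrays. A fall of Ccnd2 with GDC-0449 therefore rests on the probes of a single transcript record. Between the compounds ILMN_2700168 was 0.31 higher with JQ1 (adjusted p = 0.0375), ILMN_1225932 was 0.41 lower (adjusted p = 0.0093), and ILMN_2700166 differed by 0.16 (adjusted p = 0.231). The call on ILMN_2700168 was lost in 11 of 22 alternative settings, among them without any 1 JQ1 or GDC-0449 array and with the replicate number as a block (adjusted p = 0.0503), and that on ILMN_1225932 was lost without GDC-0449 array 1 (adjusted p = 0.0645).

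**Figure D2:**
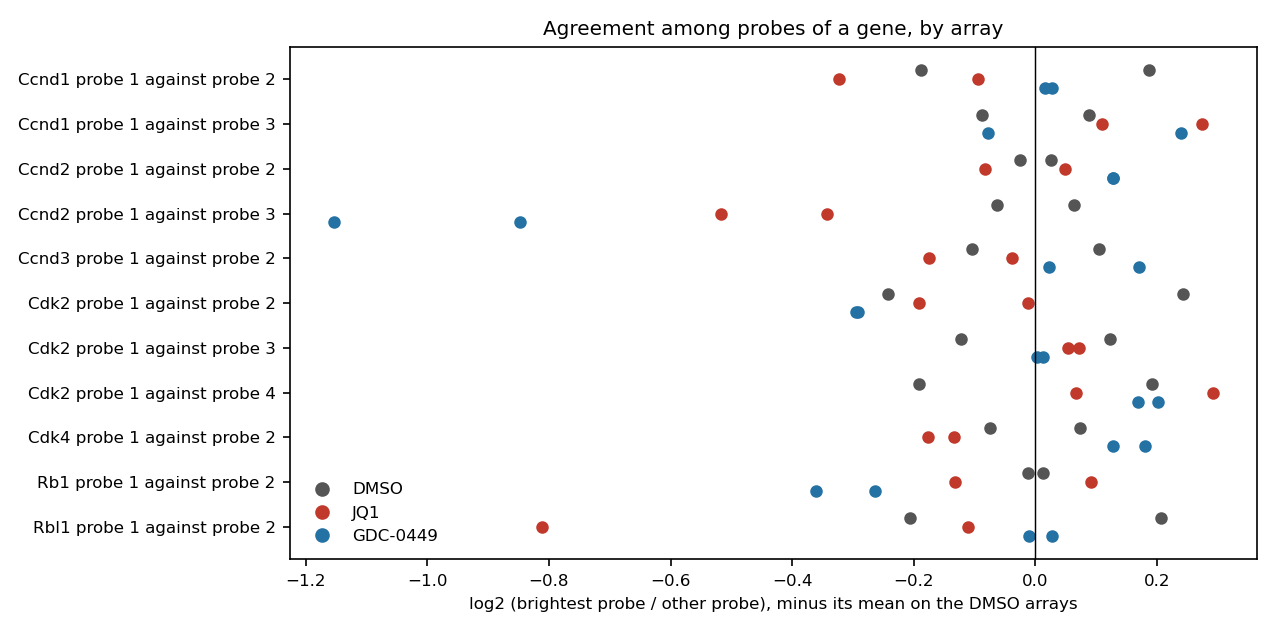
For each gene with several tested probes, the log2 ratio of its brightest probe to another, minus the mean of that ratio on the 2 DMSO arrays (x axis, log2 units); each point is 1 array, and probes are numbered from the brightest. Points near 0 mean that both probes changed alike; the Ccnd2 pair of probes 1 and 3 lies farthest from 0 on the GDC-0449 arrays.

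Ccnd3 encodes cyclin D3, the D-type cyclin best known in lymphoid and muscle cells. Probe ILMN_3131063, annotated to transcript variant 1, read 9.31 and 9.62 with DMSO, 9.96 and 10.01 with JQ1, and 9.56 and 9.51 with GDC-0449. Probe ILMN_1246473, annotated to variant 3, read 6.18 and 6.28 with DMSO, 6.76 and 6.95 with JQ1, and 6.30 and 6.09 with GDC-0449. Another probe that the file annotates to variant 3, ILMN_2661849, was above background on 0 arrays. JQ1 arrays were the highest on both tested probes, and the GDC-0449 arrays overlapped the controls. The rises with JQ1 were 1.43-fold (log2 change 0.52, SE 0.12, limma adjusted p = 0.00588) and 1.54-fold (0.62, SE 0.11, adjusted p = 0.00188), so Ccnd3 and the other D-type cyclin genes were called in opposite directions. With GDC-0449 the changes were 0.06 (95% interval -0.21 to 0.33) and -0.04 (-0.30 to 0.23), neither past the test. The direct difference between JQ1 and GDC-0449 was 0.46 (adjusted p = 0.0115) and 0.66 (adjusted p = 0.00152), the former lost without the second JQ1 array (adjusted p = 0.0525) and without the second GDC-0449 array (0.0526).

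Both E-type cyclin genes, whose products activate CDK2, have 1 probe each. Ccne2 read 8.54 and 8.40 with DMSO, 7.95 and 8.09 with JQ1, and 7.78 and 7.69 with GDC-0449. The controls were highest and the GDC-0449 arrays lowest, without overlap. Ccne2 fell 1.37-fold with JQ1 (log2 change -0.45, SE 0.10, limma adjusted p = 0.00597) and 1.66-fold with GDC-0449 (-0.73, SE 0.10, adjusted p = 0.00418). The difference of 0.28 between the compounds (adjusted p = 0.0494) was lost in 17 of 24 alternative settings, without any 1 of the 6 arrays and under the replicate block (adjusted p = 0.0638) among them. Ccne1 read 6.36 and 6.82 with DMSO, 6.88 and 6.62 with JQ1, and 6.65 and 6.63 with GDC-0449. The 2 control arrays differed by more than the groups did, and the changes of 0.16 with JQ1 (95% interval -0.20 to 0.52) and 0.05 with GDC-0449 (-0.31 to 0.41) did not pass.

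Among the kinase genes, Cdk4 and Cdk6, both partners of the D-type cyclins, differed in their response to GDC-0449. Promoter windows of 300 bases, from 250 before to 50 after the annotated start, were matched by symbol in RefSeq (GRCm38.p6) for 6 of the 10 genes, with Ccnd1, Ccnd2, Ccne2 and Rb1 not among them. The windows of the kinase genes are shown because Cdk4 and Cdk6 were called and Cdk2 was not. Capitals mark CACGTG, the E-box word that MYC family proteins bind, which 7.15% of 32851 such windows hold, and the E2F words TTTCCCGC, TTTCGCGC, TTTGCCGC and TTTGGCGC or their reverse complements, which 2.26% hold. The Cdk4 window (chr10:127063285-127063584, plus strand) holds 4 E-box words, 172, 118, 98 and 11 bases before the start. The Cdk6 window (chr5:3343643-3343942, plus strand) holds 1, at 220 bases before the start, and that of Cdk2 (chr10:128705002-128705301, minus strand) holds 1 E2F word at 140 bases. The Cdk6 window lies inside the gene, whose annotated span begins at 3341004, and not at the outer end of that span. Neither the cyclic AMP response word TGACGTCA (1.79% of windows) nor the GLI word GACCACCCA (0.253%) lies in any of the 7 member windows on either strand, and the Ccne1 window and both Ccnd3 windows hold none of the words. A match or its absence describes these letters alone.
Cdk4 promoter: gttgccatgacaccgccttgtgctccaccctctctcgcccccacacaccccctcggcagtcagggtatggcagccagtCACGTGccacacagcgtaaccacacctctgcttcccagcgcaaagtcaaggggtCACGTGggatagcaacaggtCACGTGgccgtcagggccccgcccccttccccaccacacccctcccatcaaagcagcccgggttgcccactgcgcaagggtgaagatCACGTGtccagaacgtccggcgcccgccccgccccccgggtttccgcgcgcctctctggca
Cdk6 promoter: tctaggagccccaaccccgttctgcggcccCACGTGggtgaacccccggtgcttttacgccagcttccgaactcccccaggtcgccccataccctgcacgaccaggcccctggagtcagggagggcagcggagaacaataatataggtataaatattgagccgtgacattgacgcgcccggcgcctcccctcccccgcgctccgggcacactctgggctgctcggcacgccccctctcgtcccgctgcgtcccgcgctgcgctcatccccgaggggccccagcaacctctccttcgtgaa
Cdk2 promoter: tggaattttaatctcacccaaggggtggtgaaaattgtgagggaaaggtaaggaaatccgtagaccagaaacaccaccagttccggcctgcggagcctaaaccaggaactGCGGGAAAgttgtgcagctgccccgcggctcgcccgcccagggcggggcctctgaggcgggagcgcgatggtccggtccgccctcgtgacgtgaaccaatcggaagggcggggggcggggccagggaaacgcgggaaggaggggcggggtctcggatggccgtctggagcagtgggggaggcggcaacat

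Cdk4 read 13.35 and 13.41 with DMSO on its brighter probe, ILMN_2690976, 12.60 and 12.60 with JQ1, and 13.39 and 13.59 with GDC-0449. Its other probe, ILMN_2646203, read 10.32 and 10.24 with DMSO, 9.63 and 9.68 with JQ1, and 10.16 and 10.31 with GDC-0449. Both JQ1 arrays were below the other 4 on each probe, and the GDC-0449 arrays overlapped the controls. The signal was 1.72-fold and 1.55-fold lower with JQ1 than with DMSO (log2 change -0.78, SE 0.10, limma adjusted p = 0.000333, and -0.63, SE 0.10, adjusted p = 0.000869). With GDC-0449 the changes were 0.11 (95% interval -0.13 to 0.34) and -0.05 (-0.28 to 0.18). The difference between the compounds was itself tested and was 1.85-fold and 1.49-fold, lower with JQ1 (adjusted p = 0.000185 and 0.00145), a call that both probes kept in every alternative setting tried.

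Cdk6 had the largest fall among the members with either compound. Its 1 probe read 7.16 and 7.14 with DMSO, 5.63 and 5.74 with JQ1, and 5.88 and 5.95 with GDC-0449. All treated arrays were far below the controls and close to the lowest detected log2 signal of their arrays, 5.47 and 5.42 for JQ1 and 5.21 and 5.25 for GDC-0449. Cdk6 fell 2.77-fold with JQ1 (log2 change -1.47, SE 0.10, limma adjusted p = 8.82e-06) and 2.35-fold with GDC-0449 (-1.23, SE 0.10, adjusted p = 0.000377). The size moved with the background step and the offset. Over the alternative settings the log2 change ran from -1.81 to -0.94 for JQ1 and from -1.48 to -0.81 for GDC-0449, and every one passed the test. The difference of -0.235 between the compounds did not pass (95% interval -0.45 to -0.02, adjusted p = 0.0676), but it did with an offset of 1 (adjusted p = 0.04) or median scaling (adjusted p = 0.0412).

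Cdk2, the partner of the E-type cyclins, has 4 probes, and none passed in any of the 3 comparisons. Its brightest probe read 10.72 and 11.03 with DMSO, 10.86 and 10.75 with JQ1, and 10.73 and 10.70 with GDC-0449, so that both treatments lay within or at the edge of the controls. Over the 4 probes the log2 changes ran from -0.25 to 0.03 with JQ1 and from -0.34 to 0.14 with GDC-0449, with unlike signs. The dimmest, ILMN_1250942, read 8.13 and 8.05 with DMSO, 8.01 and 7.67 with JQ1, and 7.74 and 7.75 with GDC-0449. Its treated arrays were all below the controls, by 0.25 with JQ1 (adjusted p = 0.118) and 0.34 with GDC-0449 (adjusted p = 0.0996). It passed for JQ1 without JQ1 array 1 (adjusted p = 0.0237), and for GDC-0449 with no background correction, an offset of 50 or an intensity trend in the variance (adjusted p between 0.0369 and 0.0456).

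**Figure D3:**
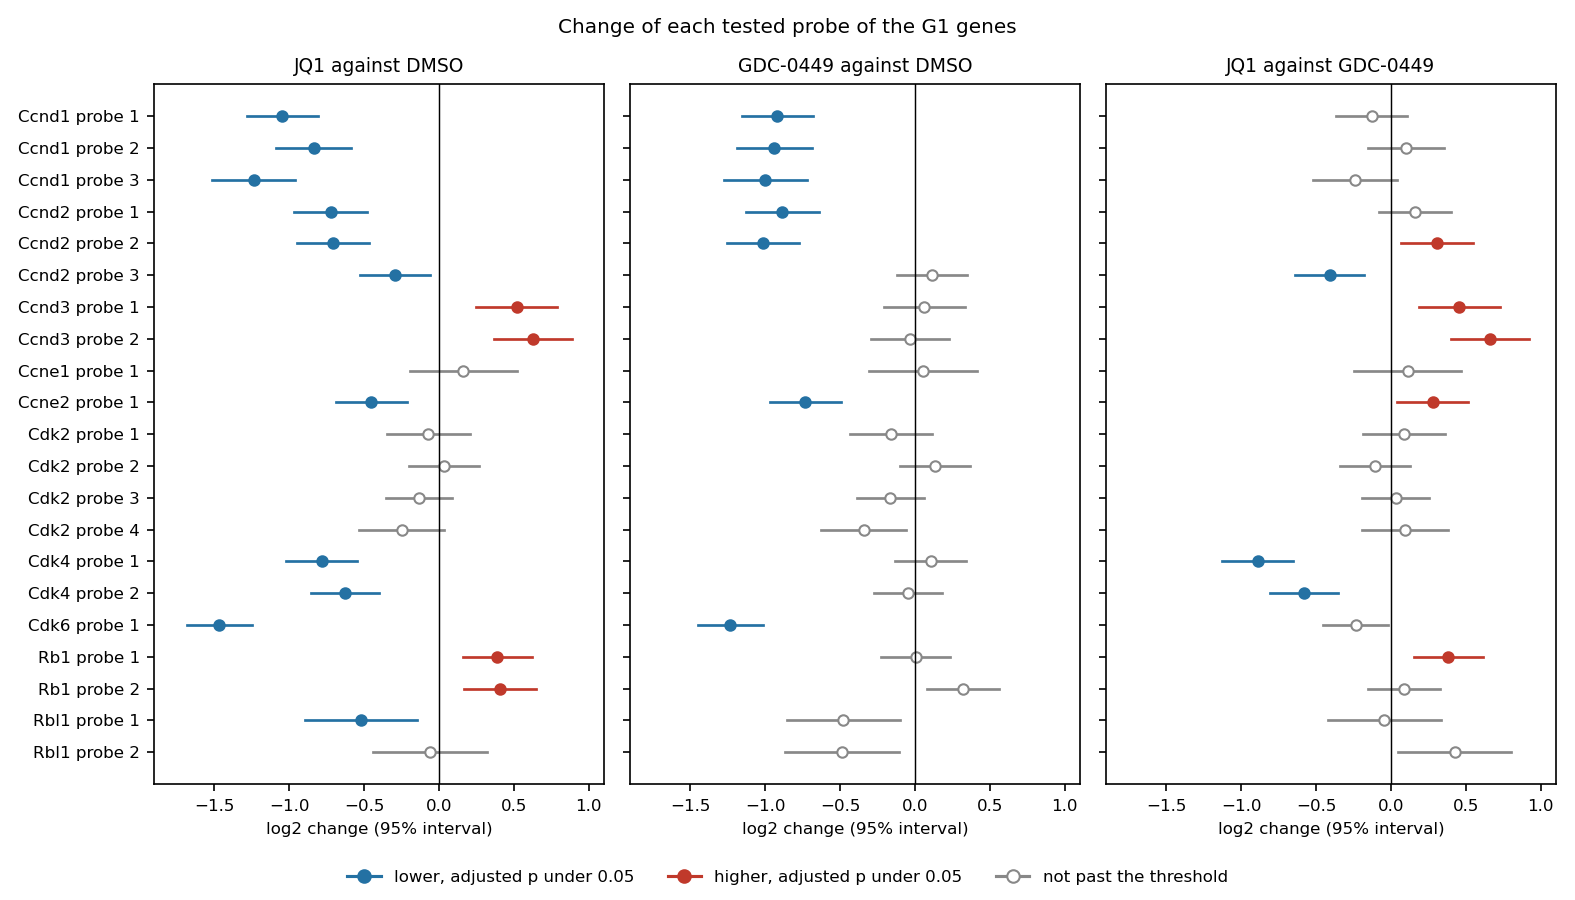
Log2 change of the 21 tested probes (x axis) with its 95% interval, for each compound set against DMSO and for the 2 compounds set against each other, from the limma model of 6 arrays; blue and red points passed an adjusted p of 0.05 as lower and higher, open points did not. Cdk6 lies farthest to the left in both comparisons with DMSO, which share the same 2 DMSO arrays, and both Cdk4 probes are lower with JQ1 than with GDC-0449.

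Rb1 encodes RB, the pocket protein that holds E2F in check. Probe ILMN_2861644 read 8.83 and 8.66 with DMSO, 9.17 and 9.10 with JQ1, and 8.74 and 8.77 with GDC-0449. Probe ILMN_2679619 read 7.98 and 7.83 with DMSO, 8.24 and 8.39 with JQ1, and 8.26 and 8.19 with GDC-0449. JQ1 arrays were above the controls on both probes, while the GDC-0449 arrays lay between the controls on the first and above them on the second. The rises with JQ1 were 1.31-fold (adjusted p = 0.0108) and 1.33-fold (adjusted p = 0.0104). Neither was stable: the first was lost without DMSO array 2 (adjusted p = 0.0635) or JQ1 array 1 (0.0598), the second without DMSO array 2 (0.0647) or JQ1 array 2 (0.0687). With GDC-0449 the changes were 0.01 (adjusted p = 0.974) and 0.32 (adjusted p = 0.0767), and the latter passed with no background correction, an offset of 50 or an intensity trend (adjusted p between 0.0328 and 0.0379). JQ1 against GDC-0449 gave 0.38 on the first probe (adjusted p = 0.0125, lost without JQ1 array 1, 0.0671, or GDC-0449 array 1, 0.056) and 0.09 on the second (adjusted p = 0.502).

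Rbl1 encodes p107, a pocket protein whose own gene is a known E2F target. Its RefSeq window (GRCm38.p6, chr2:157204485-157204784, minus strand) is shown because it holds 1 of the E2F words, in capitals, 18 bases before the start.
Rbl1 promoter: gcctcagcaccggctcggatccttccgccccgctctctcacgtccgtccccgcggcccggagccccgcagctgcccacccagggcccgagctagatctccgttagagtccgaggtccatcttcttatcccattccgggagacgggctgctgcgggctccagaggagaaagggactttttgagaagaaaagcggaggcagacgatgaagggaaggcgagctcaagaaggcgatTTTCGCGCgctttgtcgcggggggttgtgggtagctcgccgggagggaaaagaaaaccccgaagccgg

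The annotated Rbl1 probe, ILMN_2688306, read 8.26 and 8.14 with DMSO, 7.49 and 7.87 with JQ1, and 7.53 and 7.92 with GDC-0449. All treated arrays were below the controls, with a wide gap between the 2 arrays of each treatment. The fall with JQ1 was 1.44-fold (log2 change -0.52, SE 0.16, limma adjusted p = 0.0248) and was lost without DMSO array 1 (adjusted p = 0.114), DMSO array 2 (0.0645) or JQ1 array 1 (0.151), with an offset of 1 (0.0539) and with no filter on dim probes (0.0988). With GDC-0449 the change was -0.48 (adjusted p = 0.0846), past the test with no background correction, an offset of 50 or an intensity trend (adjusted p between 0.0165 and 0.0232). A dim probe of another transcript record, above background on 5 of 6 arrays, gave -0.06 with JQ1 and -0.49 with GDC-0449, neither past the test.

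With JQ1 set directly against GDC-0449, 3 of 21 member probes were lower (both of Cdk4 and 1 of Ccnd2) and 5 higher (both of Ccnd3 and 1 each of Ccnd2, Ccne2 and Rb1, the latter number 2 without JQ1 array 1 or GDC-0449 array 1), where 26.5% and 25.6% of all probes were lower and higher, 52.2% together. JQ1 arrays were wholly below the GDC-0449 arrays for 7 probes and wholly above for 8, against 38.3% and 38.6% of all probes. The median over the members was 0.09, against 0.006 over all probes.

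Other genes of the pathway were read from lists by role, each gene by its brightest tested probe. Over all 12138 genes tested this way, 29.4% fell and 27.7% rose with JQ1 (57.1% together), 8.44% fell and 7.43% rose with GDC-0449 (15.9% together), and 53% differed between the compounds. The median log2 changes against DMSO over all genes were 0.002 for JQ1 and 0.013 for GDC-0449.

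Of the 6 tested genes for CDK inhibitors, proteins that bind and block G1 kinases, 3 rose with JQ1 and 3 did not pass, while with GDC-0449 3 rose and 1 fell. Cdkn1a, the gene of p21, read 8.79 and 8.67 with DMSO, 9.61 and 9.53 with JQ1, and 8.24 and 8.17 with GDC-0449. The 3 groups did not overlap, with JQ1 highest and GDC-0449 lowest. It rose 1.79-fold with JQ1 (log2 change 0.84, SE 0.10, limma adjusted p = 0.000171), fell by 0.52 on the log2 scale with GDC-0449 (adjusted p = 0.0119), and was 1.36 higher with JQ1 than with GDC-0449 (adjusted p = 1.65e-05). Its other tested probes gave 0.57 and 0.88 with JQ1 and -0.66 and -0.50 with GDC-0449. Cdkn2d, the gene of p19INK4d, read 7.78 and 7.54 with DMSO, 8.46 and 8.53 with JQ1, and 7.86 and 7.79 with GDC-0449. JQ1 arrays were above all others, a rise of 1.78-fold (adjusted p = 0.00032), against 0.16 on the log2 scale with GDC-0449 (adjusted p = 0.342). Cdkn2a, which encodes p16INK4a and p19ARF, rose by 0.33 with JQ1 (adjusted p = 0.0275), with its other probes at -0.11 and -0.03, and by 0.54 with GDC-0449 (adjusted p = 0.014, its other probes 0.7 and 0.5). The former did not pass once either DMSO array or JQ1 array 2 was left out. With GDC-0449 Cdkn1c (0.42, adjusted p = 0.0238) and the INK4 gene Cdkn2c (0.41, adjusted p = 0.0336, its other probe 0.13) also rose. With JQ1 they gave 0.00 and -0.16, neither past the test, and the other Cdkn2c probe gave -0.48. Cdkn1b, the gene of p27, gave 0.09 with JQ1 and 0.14 with GDC-0449, neither past the test. Of the 3 rises with GDC-0449, 0 were kept without either DMSO array or GDC-0449 array 1 and 1 without GDC-0449 array 2, while 1 passed with arrays scaled to a common median. The Cdkn1a fall was lost without DMSO array 1 or GDC-0449 array 2. Between the compounds 2 of the 6 genes were lower with JQ1 (Cdkn1c and Cdkn2c) and 2 higher (Cdkn1a and Cdkn2d), where 27.2% and 25.8% of all genes were. Cdkn2b could not be tested.

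**Figure D4:**
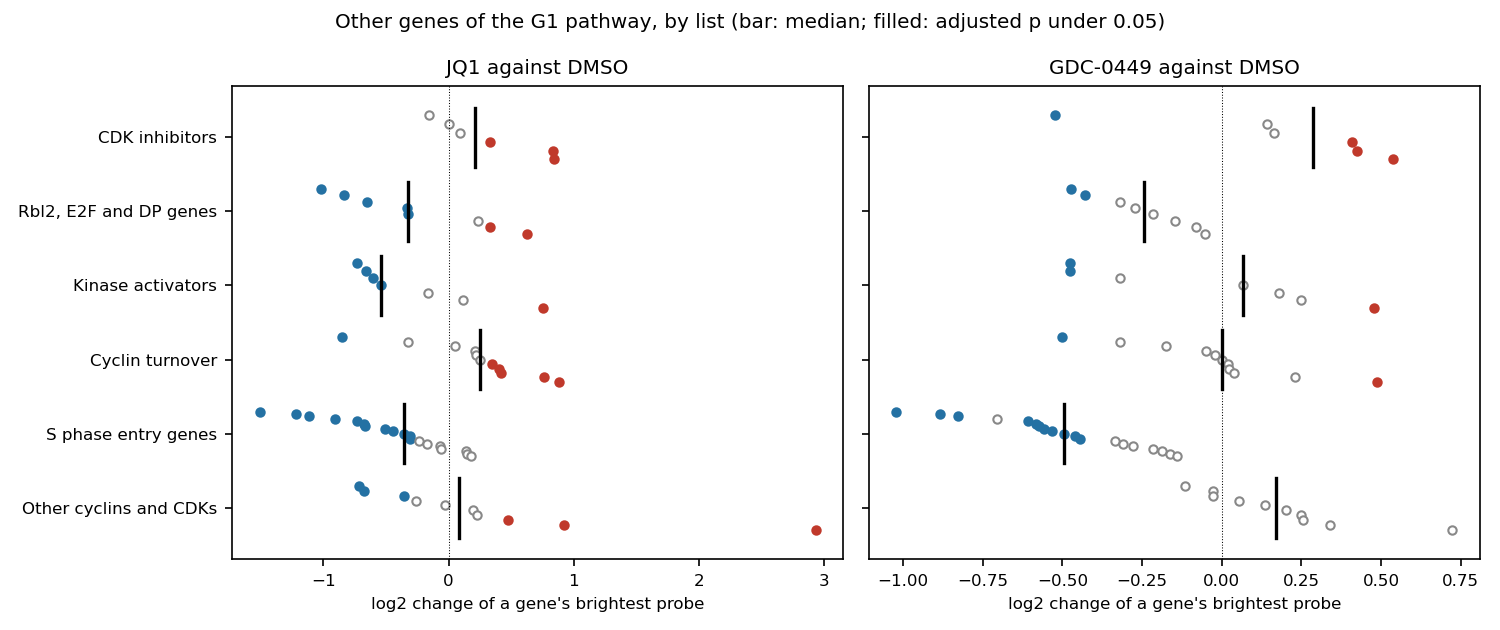
Log2 change of each tested gene of 6 pathway lists by its brightest probe (x axis; scales differ between panels) for JQ1 and GDC-0449 against DMSO; filled blue and red points passed an adjusted p of 0.05 as lower and higher, open points did not, and the bar is the list's median. The points of the S phase entry genes lie mostly left of 0 in both panels, with medians of -0.355 and -0.495.

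Among E2F targets for entry into S phase, 12 of 19 tested genes fell with JQ1 and 11 with GDC-0449, with medians of -0.355 and -0.495, and the others did not pass. The JQ1 falls of Gins2, Tyms, Rrm1 and Cdc45 each depended on which array was left out. That of Gins2 (-0.31) then ran from -0.435 to -0.186. With JQ1 the strongest were Tk1, thymidine kinase (fell by 1.22 on the log2 scale), and the replicative helicase subunit genes Mcm2 (-1.11) and Mcm3 (-1.51). With GDC-0449 they were Orc1, of the origin recognition complex, at least 1.47-fold lower because its probe was not well above background on either GDC-0449 array, and the licensing genes Cdt1 (-0.83, adjusted p = 0.00282) and Cdc6 (-0.88, adjusted p = 0.00394). Of the 11 falls with GDC-0449, 3 were kept without DMSO array 1, 7 without DMSO array 2, 5 without GDC-0449 array 1 and 4 without GDC-0449 array 2, while Orc1, Cdt1 and Cdc6 kept theirs whichever array was left out. Between the compounds Tk1 was 0.91 lower with JQ1 (adjusted p = 0.000131), and Cdc6 was 0.71 higher (adjusted p = 0.00148). The other tested probe of each gave -0.77 for Tk1 and only 0.18 for Cdc6. With GDC-0449 against DMSO that Cdc6 probe gave -0.53. Over the list, 4 genes were lower and 3 higher with JQ1 than with GDC-0449 (5 higher under median scaling), where 27.2% and 25.8% of all genes were. Of the 3, Pcna was lost without any 1 array but GDC-0449 array 2. Pola1, Ccna2 and Slbp could not be tested.

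Of 8 tested E2F and DP genes, 5 fell and 2 rose with JQ1 (median -0.33) and 2 fell with GDC-0449 (median -0.24). E2f2, an activating E2F, fell by 1.02 on the log2 scale with JQ1 (adjusted p = 7.26e-05), as did E2f6, a repressing member (by 0.66), and Tfdp1, the dimer partner of E2F proteins (by 0.83). Of the 5 falls, 3 were kept without DMSO array 2 and 3 without JQ1 array 2, and E2f2, E2f6 and Tfdp1 kept theirs throughout. Of the 2 rises, that of E2f5 was lost without DMSO array 1 (adjusted p = 0.0795), DMSO array 2 (0.0531) or JQ1 array 2 (0.103). With GDC-0449 E2f1 (-0.43, adjusted p = 0.0224) and E2f6 (-0.47, adjusted p = 0.0281) fell, and 0 of these calls were kept without either DMSO array or GDC-0449 array 1, and 1 without GDC-0449 array 2. The pocket protein gene Rbl2, E2f7 and E2f8 could not be tested. Between the compounds 2 of these genes were lower with JQ1 and 2 higher. Of the lower ones, Tfdp1 was lost without JQ1 array 2 (adjusted p = 0.113) or GDC-0449 array 1 (0.0865).

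Among 7 genes that activate the kinases, 4 fell and 1 rose with JQ1 (median -0.54), and 2 fell and 1 rose with GDC-0449 (median 0.07). Cdc37, a chaperone partner that helps fold CDK4, fell by 0.66 with JQ1 (adjusted p = 0.00062) and by 0.47 with GDC-0449 (adjusted p = 0.0174). Cdc25a, a phosphatase gene that frees CDK2 from inhibition, gave -0.735 and -0.475, both past the test, although its other probe gave 0.23 and 0.30. The mitotic phosphatase gene Cdc25c rose by 0.76 and 0.48. The 3 GDC-0449 calls were each lost without DMSO array 1 or either GDC-0449 array, and both falls also without DMSO array 2. Between the compounds 2 of the 7 were lower with JQ1.

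Of 11 tested genes for cyclin and inhibitor turnover, 5 rose and 1 fell with JQ1 (median 0.25), and 1 rose and 1 fell with GDC-0449 (median 0.002). Gsk3b, a kinase that marks cyclin D1 for export and degradation, rose by 0.88 with JQ1 (adjusted p = 0.000106), and Usp2, whose enzyme removes ubiquitin from cyclin D1, rose by 0.76 (adjusted p = 0.000297). Skp2, the ubiquitin ligase subunit that targets p27, fell by 0.85 with JQ1 (adjusted p = 0.000201), with its other probes between -0.98 and -0.35. Of the 5 rises 3 were kept without DMSO array 1 or either JQ1 array. With GDC-0449 Fbxo31, a ligase subunit for cyclin D1, fell by 0.50 (adjusted p = 0.026) and Ambra1, a ligase receptor for D-type cyclins, rose by 0.49 (adjusted p = 0.0315). The Fbxo31 call was lost without any 1 DMSO or GDC-0449 array, and that of Ambra1 without DMSO array 1 or any 1 GDC-0449 array. Between the compounds 5 of the 11 were higher with JQ1 (4 without JQ1 array 2) and 1 lower. Cks1b could not be tested.

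Over the 6 arrays, genes whose brightest probe ran most nearly parallel to a member were sought among 4788 named genes that span at least 0.5 on the log2 scale. For Ccnd1 these were Timm8a1 (Pearson r = 0.9964), Tst (0.9946) and Iars (0.9939), with 28 genes above 0.98. For Ccnd2 they were Hhip (0.9926), Mras (0.9921) and Cdt1 (0.9918), with 8 genes above 0.98, and for Cdk6 they were Gpt2 (0.9981), Slc7a11 (0.9969) and Asns (0.9966), with 27. The 6 points share 3 groups of 2 arrays, and the values are given as a description.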

How the data were processed

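RNA of 6 samples (2 per group) was measured on Illumina mouse bead arrays. The deposited table holds, per the file headers, the mean intensity of each probe's beads, linear and not normalized, with a detection p-value against negative control beads. The submitters' processing notes name GenomeStudio 1.9.0, and array medians run from 50.9 to 56.5.

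Intensities were background-corrected with limma 3.58.1 under R 4.3.3, by neqc (background taken from the detection p-values, offset 16, quantile normalization), so that changes are relative to the other probes and those of dim probes are pulled towards 0. A model with 1 mean per group was fitted to all 6 arrays with lmFit and eBayes (3 residual and 5.33 prior degrees of freedom). Tests are two-sided with Benjamini-Hochberg adjustment over all 17026 probes at 0.05, also where a gene is read by its brightest probe, which takes that probe's value from the same fit. SE is the model's, intervals are 95% without adjustment, and the number of arrays limits the precision. The procedure was tested on simulated data. A bound ("at least") raises undetected values to the lowest detected signal of the array.

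Replicate numbers showed no pairing of the samples: deviations from group means correlated at -0.013 to 0.0718 between same-numbered arrays. Such low values do not exclude shared handling, and the replicate number was fitted as a block in an alternative. The authors' processed table, with linear per-gene values some of which lie below 0, correlates at 1 with the brightest probe of each gene and was an alternative. Other alternatives were other background steps, filters, scalings and fits, and each array left out. Leave-outs that keep the probes and values of all 6 arrays were chosen after seeing the data, and they are the ones given for pathway genes. So was a fit of the brightest probes alone. Members and lists were chosen with earlier results of these data known. Named besides the members are the 3 genes of each list with the smallest p past the threshold in a comparison with DMSO, all testable CDK inhibitor genes, the 3 genes most parallel to Ccnd1, Ccnd2 and Cdk6, and Ptch1, Hhip and Hexim1 as compound checks. List members that could not be tested are named as such.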

Additional observations from a re-analysis of the deposited data

How the results depend on the processing

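No call on a member probe changed direction under any alternative tried. Reading each gene by 1 probe, the brightest, or by the authors' processed values, which follow that probe, makes the count 10 genes in place of 21 probes: 6 lower and 2 higher with JQ1, 4 lower with GDC-0449, and 1 lower and 3 higher with JQ1 against GDC-0449. With 1 array left out (the lone array of its group is then assumed to vary like the others), member probes lower and higher with JQ1 numbered 9 to 11 and 2 to 4, those lower with GDC-0449 7 in each case, and those lower and higher with JQ1 against GDC-0449 2 to 4 and 2 to 4. The 2 rises with JQ1 without DMSO array 2 are those of Ccnd3. With GDC-0449, 1 probe (Rb1) rose with no background correction, an offset of 50 or an intensity trend. JQ1 against GDC-0449 left 3 higher with no filter on dim probes and 3 with the replicate block, which lost the Ccnd2 ILMN_2700168 and Ccne2 calls and changed no other member call. Of single-probe results, 697 stayed on their side of the threshold with an array left out, 51 lost and 8 gained a call, and under the other settings 664, 11 and 12 did. No pairing by replicate number was seen, and the main fit uses none. Over all probes GDC-0449 calls numbered 2612, 1775 with an offset of 1, 1609 with no filter, and 602 to 1099 without a DMSO or GDC-0449 array, whether or not the probes and values of all 6 arrays were kept. GDC-0449 calls were more numerous with no background correction (3714), an offset of 50 (3616), an intensity trend (3717) and median scaling (2983). Median scaling shifted the median of all probes by 0.066 with JQ1 and by -0.002 with GDC-0449 against DMSO. Over pathway lists with GDC-0449, no filter on dim probes left 1 fall among E2F and DP genes, 1 fall and 0 rises among kinase activators and 0 of either in cyclin turnover, where median scaling gave 2 falls. A fit of the brightest probes alone changed the counts of 1 list: among later cyclins and kinases 1 gene rose with GDC-0449 and 3 were lower with JQ1 than with GDC-0449. Dim probes, Cdk6 with treatment and the second Rbl1 probe among them, lie near background, which limits the size of their changes.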

Other observations

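Of 10 tested genes for cyclins and kinases that act later or outside the G1 step, 3 rose and 3 fell with JQ1 (median log2 change 0.08), near the 27.7% and 29.4% of all genes. With GDC-0449 0 passed by limma (median 0.17), while at an unadjusted p of 0.05 there were 2 higher and 0 lower, and 2 rose under median scaling. Ccno, a cyclin gene known from multiciliated cells, was at least 6.89-fold higher with JQ1 than with DMSO (limma adjusted p = 3.37e-06), with mean log2 intensities of 8.07 and 5.14 and a signal above background on 1 of 2 DMSO arrays. Ccnb1, the mitotic cyclin B1 gene, fell by 0.68 (adjusted p = 0.00197), and Cdk5, a kinase gene of postmitotic neurons, fell by 0.72 (adjusted p = 0.000886). Cdk1, the mitotic kinase gene, gave -0.26 with JQ1 and -0.03 with GDC-0449, neither past the test, and is named here after its values were seen. Ccng2, a cyclin gene linked to cell cycle exit, gave 0.72 with GDC-0449 (adjusted p = 0.052), and is likewise named after its values were seen. Between the compounds 2 of the 10 were lower with JQ1 and 2 higher, the latter 1 without any 1 JQ1 or GDC-0449 array. Ccna1, Ccnb2 and Ccnj could not be tested.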
